A study of Homo sapiens with 12 samples.

Results

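The genes described here encode the protein parts of the spliceosome and its main regulators: the snRNP proteins, the SF3 and PRPF factors, the LSM ring, the SR proteins and the hnRNPs. They were taken by symbol from the raw count table of 60649 genes. Of 209 symbols that fit the naming patterns, 124 carried a pseudogene suffix and 5 had under 100 counts summed over all libraries, which left 80 members, all annotated as protein coding. By class there were 7 SNRNP, 12 SNRP, 7 LSM, 9 SF3, 13 PRPF, 12 SRSF and 20 HNRNP genes. The suffix rule, read to the letter, would also drop the 7 SNRNP genes that the patterns name, which leaves 73 members. They were kept here, and for the lines after DMSO the result without them is given beside that of the 80. All 80 passed the filter on low counts and were among the 21114 genes tested.

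Splicing removes introns from pre-mRNA. The U1 snRNP recognizes the 5′ splice site and the U2 snRNP, with its SF3A and SF3B subcomplexes, the branch point, after which the U4/U6.U5 tri-snRNP joins and is remodelled into the active enzyme. SR proteins bind exons and mostly favor their inclusion, whereas many hnRNPs act against them, so the relative amounts of these proteins set splice site choice in many cells, including tumor cells.

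Libraries came from 2 lines labelled as uterine leiomyosarcoma. SK-UT-1B, which the study describes as derived from a primary tumor, was exposed for 72 h to DMSO (2 libraries) or to MK-0752 together with gemcitabine and docetaxel, called the combination here (2 libraries). SK-LMS-1, described as derived from a metastasis, was exposed for 72 h to DMSO (4 libraries), to MK-0752 alone (2 libraries) or to the combination (2 libraries). MK-0752 is a gamma secretase inhibitor, and gemcitabine and docetaxel are chemotherapeutic agents that act on DNA synthesis and on microtubules. By the study's account the agents were given at concentrations set for each line, and MK-0752 alone was given at a higher concentration than within the combination. Each line stands for a single tumor, so a difference between the lines is a difference between these 2 cultures. The libraries carry a set number and a replicate number: the SK-UT-1B DMSO libraries are 4-1 and 4-2, the SK-UT-1B combination libraries 3-1 and 3-3, the SK-LMS-1 DMSO libraries 2-1, 2-3, 4-1 and 4-2, the MK-0752 libraries 2-2 and 2-3, and the SK-LMS-1 combination libraries 4-1 and 4-2.

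Library totals lay between 25250057 and 40709885 counts. Of the smooth muscle markers, MYH11 and MYOCD were at or below 0.978 CPM in every library. DES was at 0 in all 8 SK-LMS-1 libraries and between 1.37 and 9.76 CPM in SK-UT-1B, and TAGLN lay between 30.6 and 46.4 CPM in SK-LMS-1 and at most at 1.72 CPM in SK-UT-1B. Other genes of that list were higher, with CALD1 at 307 to 399 CPM in SK-LMS-1 and 42.8 to 46.7 CPM in SK-UT-1B, and TPM2 at 145 to 338 CPM and 65.9 to 154 CPM. MYL9 lay at 137 to 190 CPM and 36.6 to 65.1 CPM, and SMTN at 123 to 206 CPM and 29.9 to 65.7 CPM. The whole list summed to between 897 and 1110 CPM in SK-LMS-1 and to between 187 and 328 CPM in SK-UT-1B. The keratin gene KRT8 lay between 87.0 and 110 CPM in SK-LMS-1 and at 0 in SK-UT-1B. KRT18 lay at 64.3 to 144 CPM and 0.212 to 1.14 CPM, and KRT19 at 5.86 to 15.1 CPM and at most 0.738 CPM. The other epithelial markers, EPCAM and CDH1, were at or below 1.04 CPM in every library. The endothelial and blood markers summed to at most 9.40 and 2.47 CPM.

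Promoters of the members were read from RefSeq (GRCh38.p14), where 70 of the 80 members had an entry, with 94 promoters in all. Their median GC content was 62.0% over 300 bases (250 before to 50 after the start), against 58.7% over all 35116 promoters, and the median number of CpG was 27.5 against 14.0. The letters CCGGAAG, which many ETS factors bind, were found on either strand in 28.7% of member promoters and in 10.3% of all, CCAAT in 43.6% and 34.6%, CACGTG in 11.7% and 7.26%, and TATAAA in 7.45% and 11.5%. A match is a description of the sequence only. The 5 stretches printed next hold the 120 bases before the start. They belong to members called between the lines in either direction, chosen after their values were seen. Among them, SRSF12 and SRSF8 had the lowest and the highest fitted log2FC of all members after DMSO. Capitals mark matches to these letters in either orientation. SNRNP200 at chr2:96305547-96305666 (minus strand) and SNRPA at chr19:40751083-40751202 (plus strand) were lower in SK-LMS-1, as was SRSF3 at chr6:36594242-36594361 (plus strand). SRSF12 at chr6:89118072-89118191 (minus strand) had no counts in SK-LMS-1, and SRSF8 at chr11:95066757-95066876 (plus strand) was the SR gene called higher there.
SNRNP200: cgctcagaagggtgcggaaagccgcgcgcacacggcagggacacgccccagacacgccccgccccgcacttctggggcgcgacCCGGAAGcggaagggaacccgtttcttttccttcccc
SNRPA: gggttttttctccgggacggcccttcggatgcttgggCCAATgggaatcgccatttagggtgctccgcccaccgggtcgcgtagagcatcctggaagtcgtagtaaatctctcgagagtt
SRSF3: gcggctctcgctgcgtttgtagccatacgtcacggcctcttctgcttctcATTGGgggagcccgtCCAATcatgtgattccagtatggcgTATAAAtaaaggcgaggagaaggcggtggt
SRSF12: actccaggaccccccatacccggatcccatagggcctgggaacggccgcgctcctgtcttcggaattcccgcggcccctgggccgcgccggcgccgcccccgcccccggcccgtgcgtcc
SRSF8: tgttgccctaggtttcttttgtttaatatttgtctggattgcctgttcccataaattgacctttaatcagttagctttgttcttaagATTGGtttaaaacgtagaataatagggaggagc
The first 4 promoters had a GC content between 61.3% and 77.0% over 300 bases, with 28 to 37 CpG. SRSF8 differed from them, with a GC content of 36.0% and 3 CpG.

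Levels were compared between genes per kb of exon. In SK-UT-1B after DMSO the highest member was HNRNPA1, which binds nascent RNA and represses exons, at 148 ± 19.0 CPM per kb (SD, n = 2). It was followed by HNRNPK at 138 ± 18.9, SRSF2 at 121 ± 3.16, PRPF8 at 120 ± 9.47 and SNRPA at 118 ± 2.45 CPM per kb. For neighbors in this order the intervals of mean ± SD overlapped, so they did not differ beyond this spread. In SK-LMS-1 after DMSO the order was different, and SF3B5, a small SF3B subunit, had the highest mean at 122 ± 3.89 CPM per kb (SD, n = 4). It was followed by HNRNPA1 at 114 ± 9.81, SNRPC at 91.8 ± 6.63, HNRNPUL1 at 85.1 ± 13.5 and HNRNPK at 81.7 ± 13.6 CPM per kb. SF3B5 and HNRNPA1 did not differ beyond their spread, nor did SNRPC, HNRNPUL1 and HNRNPK. SRSF2 stood at 38 and SNRNP200 at 31.1 CPM per kb in this line, against 121 and 82.4 CPM per kb in SK-UT-1B. In both lines the lowest levels per kb belonged to PRPF40B, SNRPN, PRPF18, SRSF12, SNRNP35, LSM6 and LSM8, with SRSF12 the lowest in SK-LMS-1 at 0 and PRPF40B the lowest in SK-UT-1B at 0.247 CPM per kb. Within the classes, the highest and lowest level per kb in SK-UT-1B were SNRNP200 (82.4) and SNRNP35 (1.69) of the SNRNP genes, SNRPA and SNRPN (0.723) of the SNRP genes, PRPF8 and PRPF40B of the PRPF genes and SRSF2 and SRSF12 (1.53) of the SRSF genes. They were LSM2 (47.3) and LSM6 (2.25) of the LSM genes, SF3B5 (90.1) and SF3A3 (33.5) of the SF3 genes and HNRNPA1 and HNRNPUL2 (7.99) of the HNRNP genes, and in SK-LMS-1 the same genes held these places except that SNRPC was the highest SNRP gene and SF3B1 (16.5) the lowest SF3 gene.

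To see how the lines differ in their splicing genes, the level of all members was summed. The 80 members took 1.496% to 2.06% of all counts in SK-UT-1B and 0.836% to 1.015% in SK-LMS-1, with no overlap between the lines. After DMSO the sum was 17372 and 18799 CPM in SK-UT-1B and 9544, 9827, 10534 and 9833 CPM in SK-LMS-1. The mean of SK-UT-1B was 1.82 times that of SK-LMS-1. The ratio of sums was largest for the SNRNP class (2.68), followed by SRSF (2.17), HNRNP (1.84), SF3 (1.75), SNRP (1.59), PRPF (1.52) and LSM (1.47). This order holds for sums only, and SNRNP200 alone made up 922 of the 1323 CPM of the SNRNP class in SK-UT-1B after DMSO. By class median of log2FC (SK-LMS-1 over SK-UT-1B), SNRP was lowest at -1.31, followed by SNRNP at -1.185 and SRSF at -1.13. Genes of proliferation moved with the members: a list of 13 such genes summed to 4506 and 4790 CPM in SK-UT-1B and to 1353 to 1437 CPM in SK-LMS-1 after DMSO, and all 13 were called lower in SK-LMS-1. Its part in the difference was not tested. In bulk RNA, fewer cells that use a gene and less RNA per cell cannot be told apart.

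**Figure D1:**
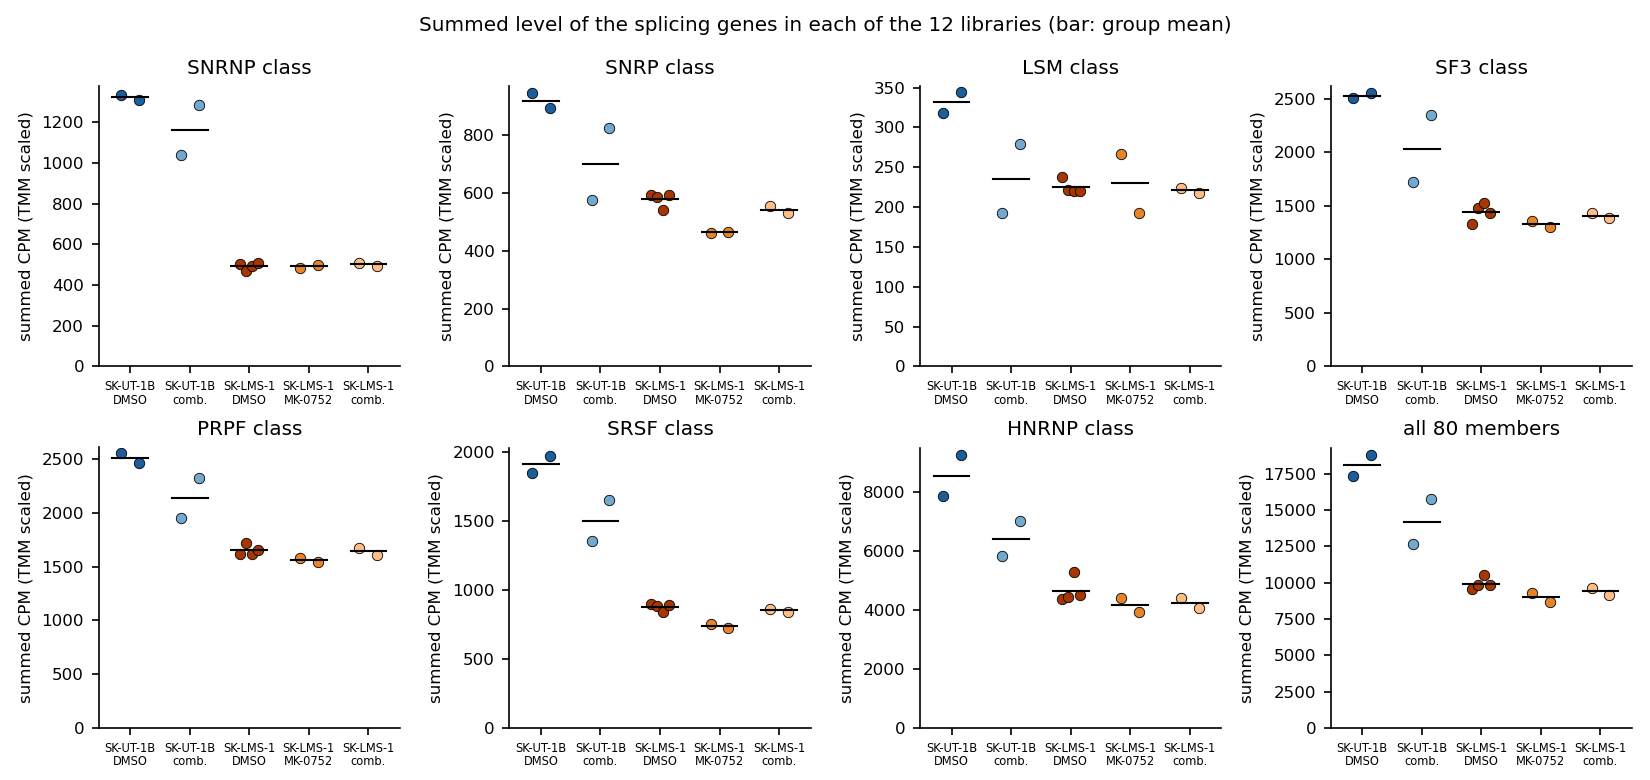
Summed level of each gene class and of all 80 members (y axis, TMM scaled CPM, from 0) in each of the 12 libraries, grouped on the x axis by line and treatment ("comb." is the combination), with a point per library and a bar at the group mean. The SK-UT-1B DMSO points lie at 17372 and 18799 CPM for all members, above the 8 SK-LMS-1 points at 8687 to 10534 CPM.

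Between the lines after DMSO, 52 of 80 members were called lower and 4 higher in SK-LMS-1 by edgeR with an adjusted p under 0.05. The 52 include SRSF12, which had 0 counts in SK-LMS-1 and passed the filters only through SK-UT-1B, so it had to differ and adds no support. Over all tested genes 19.5% were called lower, 21.5% higher and 41.0% in either direction. An absolute log2FC of at least 1 was also met by 36 members, against 31.1% of all tested genes, and 35 of these were lower. The median log2FC (SK-LMS-1 over SK-UT-1B) was -0.93 for the members and 0.00 for all tested genes, and 72 of 80 members had a log2FC below 0. With the 73 members that leave out the SNRNP genes the median was -0.86, and 51 were called. Among the 13522 tested genes with a mean of at least 50 counts the medians were -0.96 for members and 0.04 for all. In a fit on these genes, 57 members and 59.9% of all were called in either direction. Over all 12 libraries, treated ones included, 40 members were lower in every SK-LMS-1 library than in any SK-UT-1B library, against 17.4% of tested genes, and 4 (5.00%) were higher, against 19.4%. The genes that were lower without overlap included 9 of the 11 SRSF genes other than SRSF12, and 0 of 7 LSM genes.

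**Figure D2:**
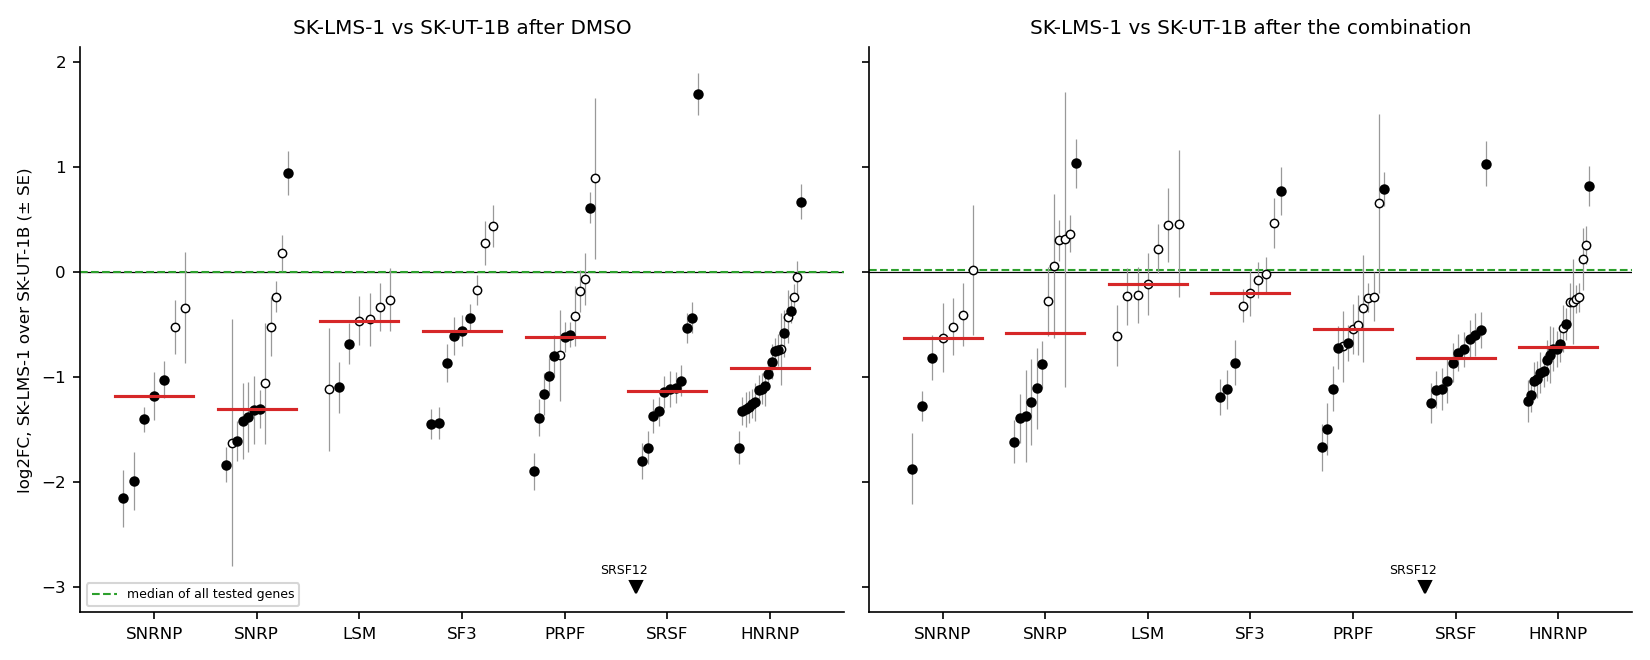
log2FC of each member, SK-LMS-1 over SK-UT-1B (y axis, error bars are SE) by class (x axis), after DMSO at left and after the combination at right. Filled points were called by edgeR (adjusted p under 0.05), open points were not, red bars are class medians, the dashed line is the median of all tested genes, and SRSF12, which had no counts in SK-LMS-1, is drawn as a triangle at the lower edge. Most points lie below 0, with class medians from -0.47 (LSM) to -1.31 (SNRP) after DMSO.

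Of the SNRNP class, 5 of 7 genes were called lower in SK-LMS-1. SNRNP200, the helicase that unwinds U4 from U6, lay at 981 and 863 CPM in SK-UT-1B and at 369, 337, 323 and 360 CPM in SK-LMS-1 after DMSO. The groups were far apart, with a log2FC of -1.41 (SE 0.12, adjusted p = 6.02e-09), the smallest adjusted p of the members. The lowest log2FC of the class was that of SNRNP70, the U1 protein that contacts SR proteins, with 138 and 204 CPM in SK-UT-1B and 22.1, 34.3, 69.5 and 34.8 CPM in SK-LMS-1 (log2FC -2.16, SE 0.27, adjusted p = 2.77e-05). Library 4-1 of SK-LMS-1 stood above the other 3 for this gene and still lay below both SK-UT-1B libraries. SNRNP25, part of the minor spliceosome, lay at 45.8 and 40.0 CPM in SK-UT-1B and at 8.71 to 13.8 CPM in SK-LMS-1 (log2FC -1.99). SNRNP40 of the U5 snRNP (log2FC -1.03) and SNRNP48 of the minor spliceosome (log2FC -1.19) were also called lower. The others were SNRNP27 (log2FC -0.52, adjusted p = 0.111) and SNRNP35 (log2FC -0.34, adjusted p = 0.659).

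In the SNRP class, 6 of 12 genes were called lower in SK-LMS-1 and 1 higher. SNRPA, the U1 protein that binds stem loop RNA, lay at 282 and 274 CPM in SK-UT-1B and at 90.3, 75.5, 65.2 and 81.2 CPM in SK-LMS-1 (log2FC -1.84, SE 0.17, adjusted p = 2.21e-08). SNRPC, a further U1 protein, went the other way, with 70.9 and 48.0 CPM in SK-UT-1B and 120, 119, 102 and 115 CPM in SK-LMS-1 (log2FC 0.94, SE 0.21, adjusted p = 0.00111). Thus the 3 U1 proteins SNRNP70, SNRPA and SNRPC did not share a direction. Of the Sm ring, SNRPD3 (log2FC -1.61), SNRPG (-1.38), SNRPE (-1.32) and SNRPD1 (-1.31) were called lower, while SNRPB (-0.52, adjusted p = 0.157), SNRPD2 (-0.24, adjusted p = 0.220) and SNRPF (-1.06, adjusted p = 0.149) were not called. The U2 protein SNRPA1 was called lower (log2FC -1.42) and SNRPB2 was not called (log2FC 0.18).

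The LSM ring, which binds the end of U6 RNA, had the class median closest to 0, -0.47. Of its 7 genes, 2 were called lower, where 19.5% of all tested genes were. LSM2 lay at 54.6 and 45.5 CPM in SK-UT-1B and at 17.6 to 32.2 CPM in SK-LMS-1 (log2FC -1.10, adjusted p = 9.35e-04), and LSM3 at 76.7 and 95.4 CPM against 44.4 to 60.2 CPM (log2FC -0.69, adjusted p = 0.00725). The other 5 were not called, with log2FC from -1.12 (LSM6, at 2.56 to 6.22 CPM in SK-LMS-1) to -0.27 (LSM7).

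Among the SF3 genes, 6 of 9 were called lower. SF3B1, the subunit that clamps the branch point helix, lay at 417 and 515 CPM in SK-UT-1B and at 200, 157, 156 and 177 CPM in SK-LMS-1 (log2FC -1.44, SE 0.15, adjusted p = 1.90e-07). SF3B3, its large neighbor in the complex, lay at 702 and 747 CPM against 251 to 288 CPM (log2FC -1.45, SE 0.14, adjusted p = 5.90e-08). SF3B4 (-0.87), SF3A2 (-0.61), SF3B2 (-0.56) and SF3A1 (-0.44) were called lower with smaller log2FC. The small subunits SF3B5 (log2FC 0.43, adjusted p = 0.0930) and SF3B6 (log2FC 0.27, adjusted p = 0.325) and the subunit SF3A3 (log2FC -0.18, adjusted p = 0.354) were not called. SF3B5 lay at 65.2 and 59.1 CPM in SK-UT-1B and between 81.4 and 86.5 CPM in SK-LMS-1 after DMSO, without overlap.

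Of the PRPF genes, 7 of 13 were called lower and 1 higher. PRPF38A, which joins the spliceosome before activation, lay at 133 and 110 CPM in SK-UT-1B and at 28.6, 31.4, 36.8 and 33.4 CPM in SK-LMS-1 (log2FC -1.90, SE 0.18, adjusted p = 3.49e-08). The kinase PRPF4B (log2FC -1.39), the U4/U6 proteins PRPF3 (-1.17) and PRPF4, the ubiquitin ligase PRPF19 (-0.80) and the scaffold PRPF8 (-0.60) were among the others called lower. PRPF6, which bridges the tri-snRNP, was called higher in SK-LMS-1, with 148, 192, 213 and 181 CPM against 125 and 115 CPM (log2FC 0.61, SE 0.15, adjusted p = 0.00192). The highest log2FC of the class, 0.89 for PRPF40B, came from 1.70 to 6.37 CPM and was not called (adjusted p = 0.377).

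Of the 11 SR protein genes with counts in both lines, 10 were called lower in SK-LMS-1 and SRSF8 was called higher. The other one, SRSF12, is described apart. SRSF1, the founding member of the family, lay at 170 and 165 CPM in SK-UT-1B and at 53.1, 53.8, 39.2 and 46.6 CPM in SK-LMS-1 (log2FC -1.81, SE 0.17, adjusted p = 3.98e-08). SRSF2 lay at 368 and 354 CPM against 114, 125, 102 and 111 CPM (log2FC -1.68, SE 0.16, adjusted p = 3.55e-08). For both genes all SK-LMS-1 libraries lay far below the lower SK-UT-1B library. SRSF1 is annotated at chr17:58000919-58007346 and SRSF2 at chr17:76734115-76737333, both on the minus strand of hg38 (GENCODE v44). SRSF3, SRSF5, SRSF6, SRSF7, SRSF10 and SRSF11 had log2FC from -1.37 (SRSF10) to -1.04 (SRSF11). The smallest differences were those of SRSF9 (log2FC -0.54, adjusted p = 0.00489) and SRSF4 (log2FC -0.44, adjusted p = 0.0237).

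SRSF12, a less common SR protein, had 0 counts in all 8 SK-LMS-1 libraries. In SK-UT-1B it had 115 and 373 counts after DMSO (3.98 and 9.89 CPM) and 405 and 498 counts after the combination (11.1 and 17.7 CPM). Set against a floor of 3 counts per library, which covers counting error only, the mean SK-UT-1B level was at least 70.4-fold higher among the DMSO libraries, and at least 40.4-fold higher with library 4-1 alone. For the combination libraries it was at least 135-fold higher, and at least 104-fold higher with library 3-1 alone. SRSF12 had the lowest log2FC of its class both as fitted and at this bound, so the class median is -1.13 either way. The gene spans chr6:89095959-89118071 on the minus strand.

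**Figure D3:**
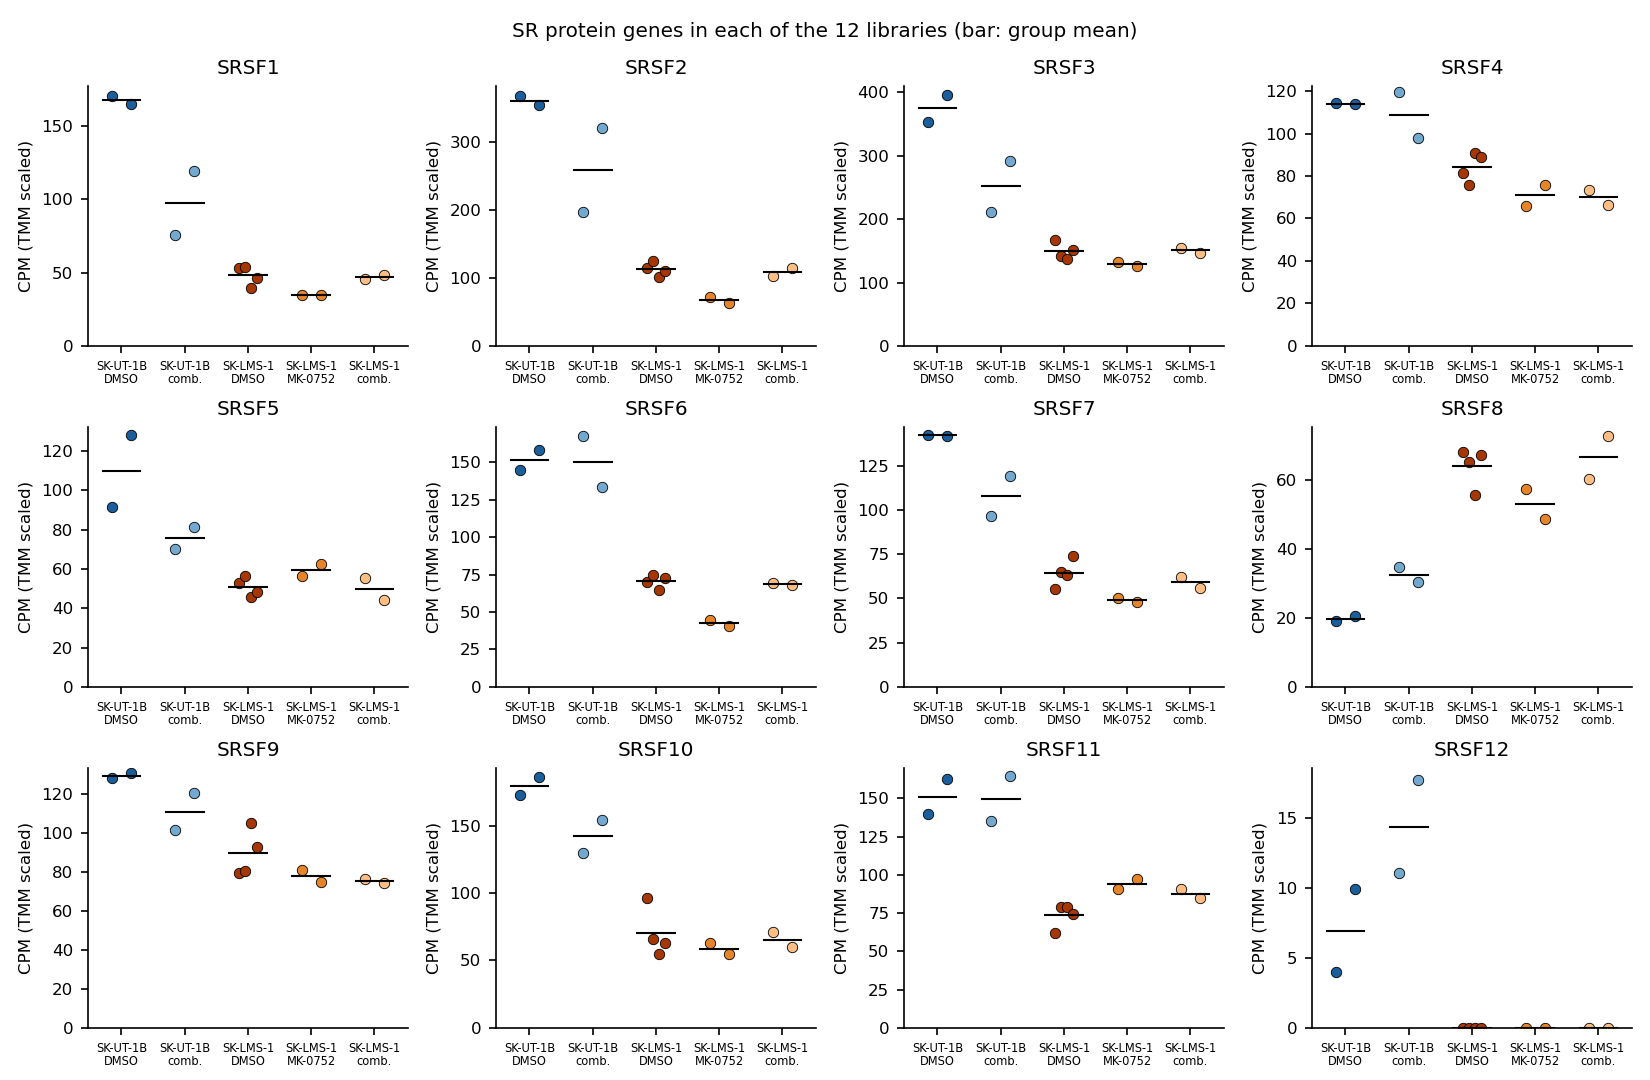
CPM (y axis, TMM scaled, from 0) of the 12 SR protein genes in each of the 12 libraries, grouped on the x axis by line and treatment, with a point per library and a bar at the group mean. All genes but SRSF8 lie higher in SK-UT-1B after DMSO than in SK-LMS-1 after DMSO, and SRSF12 lies at 0 in the 8 SK-LMS-1 libraries.

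Of the HNRNP genes, 15 of 20 were called lower in SK-LMS-1 and 1 higher. HNRNPD, which binds AU-rich RNA, lay at 362 and 490 CPM in SK-UT-1B and at 127, 125, 153 and 130 CPM in SK-LMS-1 (log2FC -1.67, SE 0.16, adjusted p = 4.97e-08). HNRNPU, a nuclear scaffold protein, lay at 982 and 1199 CPM against 409, 396, 530 and 407 CPM (log2FC -1.33, SE 0.14, adjusted p = 1.13e-07). HNRNPH1, HNRNPR, HNRNPA3, HNRNPA2B1, HNRNPC, HNRNPAB, HNRNPM, HNRNPF, HNRNPA0, HNRNPK, HNRNPDL, HNRNPUL2 and HNRNPA1 were called lower with log2FC from -1.31 (HNRNPH1) to -0.37 (HNRNPA1). HNRNPA1, the highest member per kb in SK-UT-1B, had 900 and 1080 CPM in SK-UT-1B and 692, 760, 852 and 755 CPM in SK-LMS-1. HNRNPL (-0.73), HNRNPLL (-0.43), HNRNPUL1 (-0.24) and HNRNPH3 (-0.06) were not called, with adjusted p from 0.119 to 0.852.

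Close paralogs did not always share a direction. HNRNPH1 and HNRNPH2 bind the same G runs, and HNRNPH1 was lower and HNRNPH2 higher in SK-LMS-1. HNRNPH2 lay at 52.7 and 68.2 CPM in SK-UT-1B and at 94.0, 92.2, 93.2 and 105 CPM in SK-LMS-1 (log2FC 0.67, SE 0.17, adjusted p = 0.00313). Without library 4-1 of SK-UT-1B DMSO its log2FC was 0.45 and it was no longer called. The ratio of HNRNPH1 to HNRNPH2 was 6.26 and 5.48 in SK-UT-1B after DMSO and 1.33 to 1.87 in SK-LMS-1. SRSF8, an expressed retrocopy of SRSF2, lay at 19.0 and 20.6 CPM in SK-UT-1B and at 68.0, 65.2, 55.6 and 67.3 CPM in SK-LMS-1 (log2FC 1.69, SE 0.20, adjusted p = 8.66e-07). The ratio of SRSF2 to SRSF8 was 19.3 and 17.2 in SK-UT-1B and 1.65 to 1.92 in SK-LMS-1 after DMSO. HNRNPD and HNRNPDL were both lower in SK-LMS-1, and their ratio was 2.46 and 2.67 against 1.32 to 1.40. SNRPN, the paralog of SNRPB, lay between 0.143 and 4.29 CPM in all libraries and was not called (log2FC -1.63, adjusted p = 0.284). HNRNPA1L2 had 0 counts, and HNRNPCL1, HNRNPCL2, HNRNPCL3 and HNRNPCL4 had 26 or fewer in all libraries together, so these paralogs are not members.

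Some counts are less certain than others. Of the members, 9 had 20% or more of their exon bases under another gene on either strand. These were SRSF1, SRSF2, SRSF9, HNRNPA3, HNRNPUL2, SNRPN, PRPF31, PRPF40B and SNRNP35. Overlap on the same strand was 32.7% for SRSF1, 44.3% for HNRNPUL2 and 43.9% for SNRPN, and at most 3.33% for the others named. Stretches of 75 bases that also occur in transcripts of another gene made up 42.9% of HNRNPUL2, 29.2% of SRSF1 and 28.9% of SNRPN. They made up 13.2% of SRSF6, 13.1% of HNRNPH2, 11.5% of HNRNPA3, 11.1% of SNRPD3, 9.88% of HNRNPL and 9.79% of HNRNPA1. Reads from these shared stretches could be left out or given to the other gene.

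The lines were also compared after the combination. Here all SK-UT-1B libraries belong to set 3 and all SK-LMS-1 libraries to set 4, and the concentrations were those of each line, so line, set and dose cannot be told apart. In this comparison, 40 members were called lower and 5 higher in SK-LMS-1, where 13.6% and 19.3% of all tested genes were called lower and higher. The median log2FC was -0.60 for the members and 0.02 for all tested genes. Without library 3-1 of SK-UT-1B the median was -0.80 and without library 3-3 it was -0.42. Of the 13 proliferation genes, 10 were called lower in SK-LMS-1 here, and their part in the difference was not tested. SNRNP200 was again the member with the smallest adjusted p, with 801 and 957 CPM in SK-UT-1B and 361 and 365 CPM in SK-LMS-1 (log2FC -1.28, adjusted p = 5.45e-07). The 40 again include SRSF12, with 0 counts in SK-LMS-1. Of the other 11 SRSF genes 10 were called lower and SRSF8 was called higher (log2FC 1.03, adjusted p = 7.72e-04). Next by p were SNRPA (log2FC -1.62), PRPF38A (-1.67), HNRNPU (-1.17) and SF3B3 (-1.19). Of the SRSF genes called lower, SRSF2 (-1.25), SRSF6 (-1.12), SRSF10 (-1.12), SRSF1 (-1.04), SRSF7 (-0.87), SRSF11 (-0.77) and SRSF3 (-0.74) had the smallest p. Of the 12 HNRNP genes called lower, HNRNPA0 (-1.23), HNRNPR (-1.04), HNRNPAB (-1.03), HNRNPH1 (-0.96), HNRNPF (-0.95), HNRNPD (-0.84) and HNRNPA3 (-0.69) followed HNRNPU. SNRNP70 had the lowest log2FC of the members with counts in both lines (-1.87), and SNRPD3 (-1.40), SF3B1 (-1.12), PRPF4B (-1.12) and PRPF3 (adjusted p = 7.05e-05) were also called lower. SNRNP35 was the highest of its class at 0.02, not called, and turned sign under 6 alternatives. SNRPC (1.03), HNRNPH2 (0.82), PRPF6 (0.79) and SF3B5 (0.77) were called higher in SK-LMS-1. Without library 3-1, SF3B5 had a log2FC of 0.35 and was not called. Without library 3-3, HNRNPC had a log2FC of -0.40 in place of -0.74 and was not called. The LSM class had 0 of 7 called, with log2FC from -0.61 (LSM2) to 0.46 (LSM6, -0.16 to 1.47 without each library), 1 of them lower at an unadjusted p under 0.05, against 17.2% of tested genes. SNRNP25, called after DMSO, had a log2FC of -0.63 here (adjusted p = 0.166).

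To determine whether the combination changed these genes in SK-UT-1B, the 2 combination libraries were compared with the 2 DMSO libraries, which also serve in the comparison of the lines. By edgeR 0 of 80 members were called, where 0.251% of all tested genes were called lower and 0.464% higher. At an unadjusted p under 0.05, 28 members were lower and 1 higher, against 5.08% and 5.41% of tested genes, and DESeq2 called 9 members, all lower, and 2.81% of all tested genes. These 9 were HNRNPA2B1, HNRNPA3, HNRNPD, HNRNPDL, LSM3, SNRPD1, SNRPD2, SRSF1 and SRSF3. The median log2FC was -0.32 for the members and 0.00 for all tested genes, and 70 of 80 had a log2FC below 0. Without library 3-3 this median was -0.52, and without library 3-1 it was -0.23. Both combination libraries were below both DMSO libraries for 44 members (55.0%), against 15.4% of tested genes, and above for 4 (5.00%), against 16.7%. The number of calls differed between fits that left out a library. With 3-1 as the lone combination library, assumed to vary like the other groups, 28 members (27 of them lower) and 7.31% of tested genes were called, and with 3-3 alone 0 members and 1.71% of genes. Without library 4-1 of DMSO 5 members and 2.02% of genes were called. The DMSO libraries belong to set 4 and the combination libraries to set 3, so set and treatment cannot be told apart. Proliferation genes moved in the same direction, with sums of 2505 (3-1) and 3524 (3-3) CPM against 4506 and 4790 CPM, and 1 of 13, CCNA2, was called lower. The smooth muscle list was also lower in sum, with 187 (3-1) and 284 (3-3) CPM against 307 and 328 CPM, and 0 of its 9 tested genes were called by edgeR. The part of either list in the difference was not tested.

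The 5 members with the smallest p in this comparison were HNRNPD, HNRNPA3, SRSF1, LSM3 and HNRNPA2B1. HNRNPD lay at 202 (3-1) and 292 (3-3) CPM after the combination and at 362 and 490 CPM after DMSO (log2FC -0.79, SE 0.19, adjusted p = 0.0753). SRSF1 lay at 75.3 and 119 CPM against 170 and 165 CPM (log2FC -0.79, SE 0.21, adjusted p = 0.0983). HNRNPA3 lay at 251 and 345 CPM against 418 and 505 CPM (log2FC -0.63, adjusted p = 0.0954). In each of these genes the groups did not overlap and library 3-1 was the lower. HNRNPA2B1, an exon repressor, lay at 410 and 656 CPM against 799 and 1054 CPM (log2FC -0.80, adjusted p = 0.126), and LSM3 at 39.7 and 55.6 CPM against 76.7 and 95.4 CPM (log2FC -0.85, adjusted p = 0.112). By class, the median log2FC was -0.50 for SNRNP, -0.44 for LSM, -0.43 for HNRNP, -0.31 for SNRP, -0.28 for SRSF, -0.26 for SF3 and -0.17 for PRPF. The lowest log2FC of a class was -1.09 for SNRNP25, -1.02 for LSM6, -0.80 for SNRPF, -0.51 for SF3B1 and -0.50 for PRPF19, none called. Values above 0 were those of SRSF12 (1.05, adjusted p = 0.824), SRSF8 (0.72, adjusted p = 0.161), PRPF3 (0.34) and SNRNP27 (0.31), which had no overlap, and of 6 further genes with log2FC up to 0.34 (PRPF40B, -0.03 to 0.80 without each library), among them SNRPD3 (0.24) and HNRNPA0 (0.18, -0.13 to 0.43 without each library). The highest SF3 and LSM values were -0.02 for SF3B6, which ranged from -0.26 to 0.26 without each library, and -0.15 for LSM5. SRSF8 lay at 34.8 and 30.5 CPM after the combination and at 19.0 and 20.6 CPM after DMSO, so the ratio of SRSF2 to SRSF8 was 5.67 and 10.5 after the combination, against 19.3 and 17.2.

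**Figure D4:**
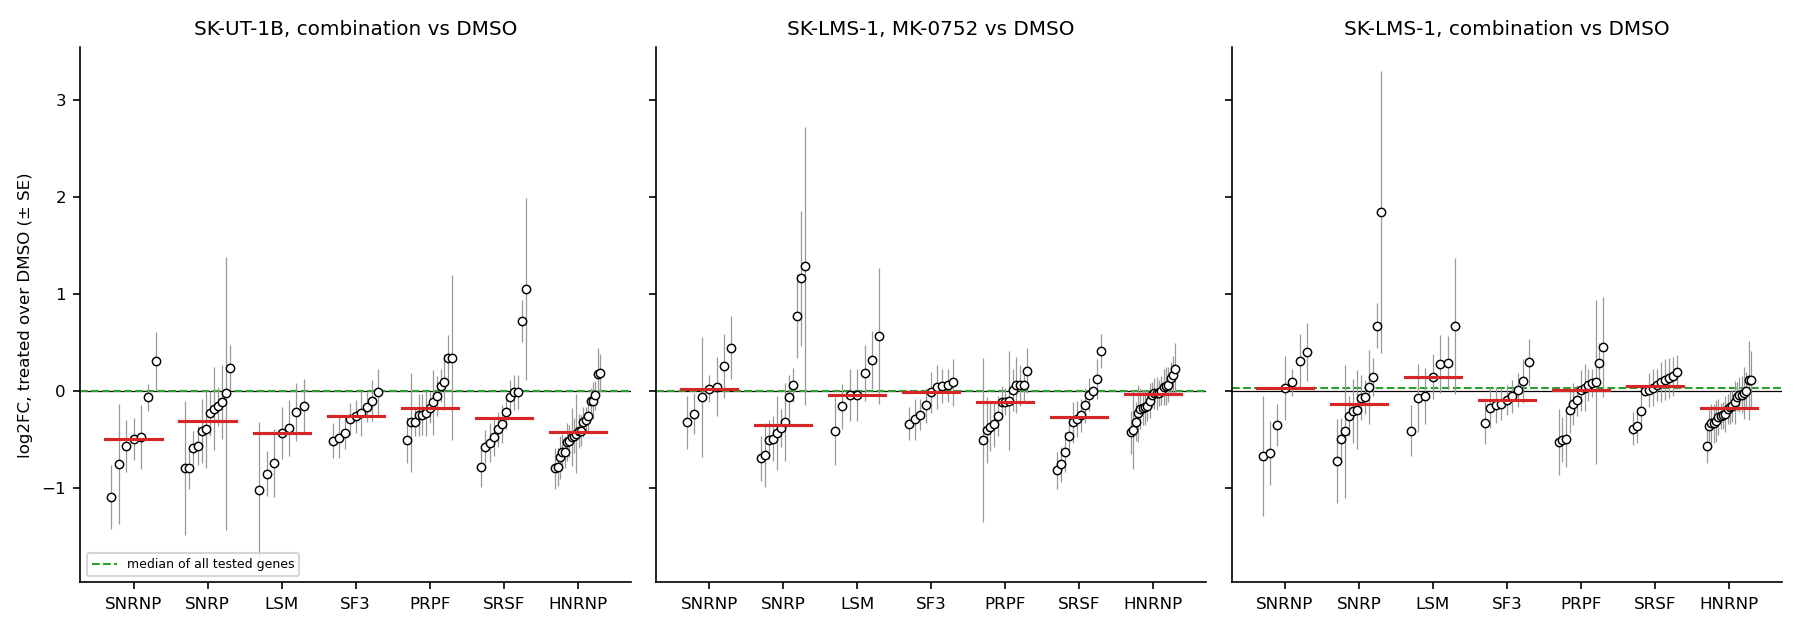
log2FC of each member after treatment over DMSO (y axis, error bars are SE) by class (x axis) for the combination in SK-UT-1B, MK-0752 in SK-LMS-1 and the combination in SK-LMS-1. All points are open because 0 members were called by edgeR, red bars are class medians and the dashed line is the median of all tested genes. The class medians lie between -0.50 and -0.17 in SK-UT-1B and between -0.35 and 0.15 in SK-LMS-1.

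In SK-LMS-1 after exposure to MK-0752, 0 of 80 members were called by edgeR relative to the DMSO libraries of set 2, where 0.279% of tested genes were called lower and 0.0853% higher. At an unadjusted p under 0.05, 7 members were lower and 1 higher, against 3.94% and 2.48% of tested genes. DESeq2 called SRSF2 and SRSF6, and 1.04% of tested genes. The median log2FC was -0.08 for the members and 0.00 for all tested genes. It ranged from -0.16 to -0.01 when each library was left out, and was -0.22 with the DMSO libraries of set 4 as control. SRSF2 had the smallest p, with 72.6 and 63.2 CPM after MK-0752 and 114, 125, 102 and 111 CPM in the 4 DMSO libraries (log2FC -0.82, SE 0.19, adjusted p = 0.0810). SRSF6, which like SRSF2 favors exon inclusion, lay at 44.5 and 40.9 CPM against 70.1, 74.6, 64.5 and 72.8 CPM (log2FC -0.76, SE 0.18, adjusted p = 0.0822). SRSF1 lay at 34.6 and 34.4 CPM against 53.1, 53.8, 39.2 and 46.6 CPM (log2FC -0.63, adjusted p = 0.399). For these 3 genes both MK-0752 libraries lay below all 4 DMSO libraries, set 4 included. With 1 library left in a group, SRSF2 had a log2FC of -0.88 (without library 2-1 of DMSO) or -0.92 (without library 2-2 of MK-0752). SRSF6 was called with all 4 DMSO libraries as control (log2FC -0.72, adjusted p = 0.0361).

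The SNRP class had the lowest class median after MK-0752, -0.35, followed by SRSF at -0.27, whereas the HNRNP, SF3, LSM and SNRNP medians lay between -0.04 and 0.02 and PRPF was at -0.11. SNRPC lay at 78.5 and 69.1 CPM against 120, 119, 102 and 115 CPM (log2FC -0.69, adjusted p = 0.409), and was called in a fit on the libraries of this comparison alone (adjusted p = 0.0443). SNRPA lay at 54.2 and 62.8 CPM against 90.3, 75.5, 65.2 and 81.2 CPM (log2FC -0.50, adjusted p = 0.610). SRSF11 was the SR gene with the highest log2FC, 0.41 (adjusted p = 0.716), with 90.6 and 97.4 CPM against 62.1 to 79.4 CPM. Against the DMSO libraries of set 2, both MK-0752 libraries were lower for 24 of 80 members, where 17.5% of tested genes were, and higher for 9 (11.2%), where 16.9% were. Against all 4 DMSO libraries, both MK-0752 libraries were lower for 18 members (22.5%), among them 5 of 12 SRSF and 4 of 12 SNRP genes, where 7.70% of tested genes were, and higher for 3 (3.75%), SRSF5, SRSF11 and SNRPN, where 9.45% were. The highest values of the other classes were 0.45 for SNRNP70, 0.56 for LSM6, 0.21 for PRPF31, 0.09 for SF3B6 and 0.22 for HNRNPUL2, and SNRPN had 1.29. The lowest were -0.33 for SNRNP48, -0.41 for LSM7, -0.50 for PRPF40B, -0.34 for SF3A3 and -0.43 for HNRNPM. Of these uncalled values several turned sign: with all 4 DMSO libraries and with those of set 4 as control, SNRNP70 had -0.06 and -0.44 and PRPF31 -0.03 and -0.23. With set 4 as control SNRNP48 had 0.11, and SF3B6 ranged from -0.14 to 0.29 without each library. The 13 proliferation genes summed to 938 and 839 CPM after MK-0752 and to 1353 to 1437 CPM in the 4 DMSO libraries, and MKI67 and CCNB1 were called lower. The epithelial markers summed to 164 and 178 CPM after MK-0752 and to 214 to 264 CPM in the 4 DMSO libraries, with KRT18 at 64.3 and 72.3 CPM against 103 to 144 CPM, and 0 of the 4 tested were called by edgeR. The part of either list in these values was not tested.

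In SK-LMS-1 after exposure to the combination, 0 of 80 members were called relative to the DMSO libraries of set 4, where 0.00947% of tested genes were called lower and 0.0142% higher by edgeR. At an unadjusted p under 0.05, 5 members were lower and 1 higher, against 1.16% and 3.17%. DESeq2 called 0 members and 0.213% of tested genes. The median log2FC was -0.06 for the members and 0.03 for all tested genes. HNRNPAB had the smallest p, with 97.6 and 77.6 CPM after the combination and 147 and 112 CPM in set 4 (log2FC -0.56, SE 0.18, adjusted p = 0.908). The DMSO libraries of set 2 held 91.3 and 95.9 CPM, so over all 4 DMSO libraries the groups overlapped. SNRPD3 lay at 34.97 and 35.9 CPM against 20.7 and 23.7 CPM in set 4 and 33.9 and 26.2 CPM in set 2 (log2FC 0.67, adjusted p = 0.908). The others at an unadjusted p under 0.05 were SRSF9 (log2FC -0.39), SNRPD1 (-0.50), HNRNPU (-0.36) and PRPF31 (-0.50). Both combination libraries were below both set 4 libraries for 24 of 80 members, where 11.4% of tested genes were, and above for 11 (13.8%), where 21.0% were. In the HNRNP class 17 of 20 genes had a log2FC below 0, with a median of -0.18, and 12 of these 24 members were of this class. Control library 4-1 stood apart for it, with an HNRNP sum of 5302 CPM against 4364, 4461 and 4521 CPM in the other 3 DMSO libraries and 4410 and 4067 CPM after the combination. Against all 4 DMSO libraries 2 of 20 HNRNP genes were lower without overlap, and 16 of 20 had a higher level in DMSO set 4 than in set 2 (median log2FC 0.15). Against all 4 DMSO libraries 8 members were lower, among them HNRNPA1 and HNRNPA2B1, where 3.36% of tested genes were, and 5 were higher, SF3B5, SNRNP27, SNRPD3, SNRPN and SRSF11, where 7.99% were. The 13 proliferation genes summed to 1239 and 1127 CPM, against 1406 and 1420 CPM in set 4, and 0 of them were called by edgeR. Without library 4-2 of the DMSO set, the control was library 4-1 alone, at 69.5 CPM for SNRNP70, and the log2FC of this gene was -1.03. The extremes of the classes were SNRNP35 (-0.67) and SNRNP27 (0.40), SNRPA1 (-0.72) and SNRPN (1.84), LSM4 (-0.41) and LSM6 (0.67), SF3A2 (-0.33) and SF3B6 (0.29), PRPF39 (-0.53) and PRPF18 (0.45), SRSF9 and SRSF11 (0.19), and HNRNPAB and HNRNPLL (0.11). With the DMSO libraries of set 2 as control, PRPF18 had -0.20, SF3A2 0.17 and SNRPA1 0.44. HNRNPLL ranged from -0.11 to 0.40 without each library. The value of SNRPN rests on 5 and 56 counts in set 4, which lie far apart, and on 90 and 80 counts after the combination.

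The difference between the lines in their response to the combination was tested directly. In SK-UT-1B the combination libraries are of set 3 and the DMSO libraries of set 4, whereas those of SK-LMS-1 are all of set 4, and the doses differed by line, so set, dose and line cannot be told apart here. By edgeR 0 of 80 members were called, where 0.0853% of tested genes were called higher and 0.147% lower. DESeq2 called 0 members and 0.786% of tested genes. At an unadjusted p under 0.05, 8 members were higher and 0 lower, that is, with a higher log2FC in SK-LMS-1 than in the other line, against 4.45% and 3.22%. They were SRSF1 (difference 0.92, SE 0.29, adjusted p = 0.435), LSM3 (1.00), HNRNPD (0.75), SRSF3 (0.64), SNRNP25 (1.12), SNRNP48 (0.88), SRSF5 (0.63) and SNRPD2 (0.53). The uncalled extremes of the classes were SNRPN (1.86) and SNRPA1 (-0.54), LSM6 (1.69) and LSM4 (0.03), PRPF18 (0.77) and PRPF38B (-0.59), SF3B2 (0.44) and SF3B4 (-0.07), HNRNPD and HNRNPA0 (-0.52), SNRNP25 and SNRNP70 (-0.16), and SRSF1 and SRSF12 (-1.05, with 0 counts in SK-LMS-1). Of these SNRPN, LSM4, SF3B4 and SNRNP70 turned sign when a library was left out. The median difference was 0.21 for members and 0.05 for all tested genes. With library 3-1 as the lone SK-UT-1B combination library 10 members and 4.27% of tested genes were called and the median was 0.38. With 3-3 alone 0 members and 1.43% of genes were called and it was 0.07.

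Within SK-LMS-1, the effect of MK-0752 minus that of the combination gave 0 called members by edgeR. This method called 0.00474% of tested genes higher and 0.0332% lower, and DESeq2 called 0 members and 0.237% of tested genes. Because MK-0752 was at a higher concentration alone than in the combination, this difference is not that of adding the other agents to one exposure, and the control sets differ as well. At an unadjusted p under 0.05, 5 members were lower and 3 higher, against 3.62% and 1.56%. SNRPD3 had the smallest p (difference -1.17, SE 0.33, adjusted p = 0.573), followed by SRSF2 (-0.85), SRSF6 (-0.76), SRSF1 (-0.77) and SNRPA1 (1.49). Other uncalled extremes of the classes were PRPF31 (0.71) and PRPF40B (-0.60), LSM4 (0.37) and LSM7 (-0.34), and SNRPF (1.58), SNRNP70 (1.08), HNRNPAB (0.39), SRSF9 (0.35) and SF3A2 (0.32) at the upper end, with HNRNPL (-0.51), SNRNP48 (-0.64) and SF3B6 (-0.20, -0.51 to 0.02 without each library) at the lower end. The DMSO sets 4 and 2 were also compared, with 0 members called by edgeR and by DESeq2 and a median of 0.08. Of all 21114 tested genes, edgeR called 0 and DESeq2 called 36 (0.171%). At an unadjusted p under 0.05, 5 members were higher in set 4 and 1 lower, against 2.14% and 3.53% of tested genes. These were SNRPF (log2FC 1.48), SNRPA1 (1.16), SNRNP70 (0.89), SF3A2 (0.51), HNRNPAB (0.47) and SRSF10 (-0.46). Other uncalled extremes were PRPF31 (0.44) and PRPF18 (-0.65), LSM2 (0.32, -0.08 to 0.63 without each library) and LSM5 (-0.42), SRSF9 (0.30), SNRPD3 (-0.44), SNRNP48 (-0.43), SF3B6 (-0.23, -0.52 to 0.00 without each library) and HNRNPL (-0.21). In both comparisons SNRNP70 had values from 1.22 to 1.47 without library 2-3 or without library 4-2 of DMSO, each of which left 1 library in its set.

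Other splicing genes were counted from a list of 98, of which 96 were tested: Sm assembly factors, U2 and 3′ splice site factors, helicases, the Prp19 complex, SR kinases and SR-like factors, the exon junction complex, the minor spliceosome and further RNA-binding regulators. Between the lines after DMSO, 52 were called lower and 11 higher in SK-LMS-1, with a median log2FC of -0.70, where 19.5% and 21.5% of all tested genes were called lower and higher. After the combination 42 were lower and 14 higher, with a median of -0.50, where 13.6% and 19.3% of all tested genes were. The exon junction complex, which marks spliced mRNA, had 8 of 8 genes called lower after DMSO, and SR kinases and SR-like factors 8 of 12. The 13 listed genes of the Prp19 complex and its associates had 0 lower and 2 higher (21.5% of all tested genes were higher), with a median of 0.25. This list leaves out PRPF19 itself, a member that was called lower. DHX8, the helicase that releases spliced mRNA, had a log2FC of -1.91, and SRRM1 (-1.35), DHX15 (-1.63), TRA2B (-1.37), GEMIN5 (-1.53) and SRRM2 (-1.08) were also called lower. MBNL1, a regulator of tissue-specific exons, was called higher, with 637, 601, 484 and 576 CPM in SK-LMS-1 against 228 and 202 CPM (log2FC 1.41, adjusted p = 4.05e-08). After treatment 0 of the 96 were called in SK-UT-1B or, with either treatment, in SK-LMS-1. The median log2FC was -0.19 for the combination in SK-UT-1B, where 73 of 96 were below 0, -0.05 for MK-0752 and -0.01 for the combination in SK-LMS-1.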

How the data were processed

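RNA from both lines, in 12 libraries, was measured by bulk RNA sequencing with a stranded kit after removal of ribosomal RNA. The authors trimmed single-end reads with Trim Galore 0.3.7, aligned them to hg38 with STAR 2.7.9a, used SortMeRNA against ribosomal reads, and deposited the raw read counts of each gene. Strand setting and annotation are not given in the sources used here. Reads that fit several genes may be missing from the counts of close paralogs.

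Counts were tested with edgeR 4.0.16 in R 4.3.3, with filterByExpr, TMM scaling and a robust quasi-likelihood model of all 6 groups, which kept 21114 genes. P-values were adjusted by the Benjamini-Hochberg method over all of them, and a gene was called at an adjusted p under 0.05. SK-LMS-1 DMSO libraries numbered 2 were the control for MK-0752, and those numbered 4 for the combination. The fit was also run on simulated data, and no outcome of that run is reported here. Tables were handled with pandas 2.3.3 in Python 3.11.15. Exon lengths, positions and overlaps came from GENCODE v44.

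The genes and lists described were chosen with earlier results of these data known. The text names each called member up to the 30 smallest p in a comparison, the 5 smallest p where fewer than 5 were called, the highest and lowest log2FC and level per kb in each class, and the paralog pairs. Other splicing genes are counted, with up to 10 called genes named. A few genes that enter the counts are not reported here by name, and 1 of these and SRSF12, at 0 there, were left out of the search for single libraries that stand apart. Alternatives were DESeq2 1.42.0, its size factors, other filters, other DMSO controls, a replicate block, fewer members and leaving out each library. No source states that the libraries of a group came from separate cultures, so p-values measure the spread between libraries only.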

Additional observations from a re-analysis of the deposited data

Results flagged for a closer look

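Among the 4 SK-LMS-1 DMSO libraries, 5 of the 78 members examined had 1 library far from the other 3. A gap of this size arises by chance in about 1 of 20 groups of 4. Library 4-1 stood apart for HNRNPU at 530 CPM against 396 to 409 CPM in the others, and for PRPF19 at 92.9 CPM against 107 to 109 CPM. Library 4-2 stood apart for HNRNPH2 at 105 CPM against 92.2 to 94.0 CPM, and for SNRNP40 at 55.2 CPM against 46.4 to 47.7 CPM. Library 2-3 stood apart for PRPF39 at 13.3 CPM against 18.3 to 19.3 CPM. The genes with library 4-1 apart did not share a direction, since HNRNPU was higher there and PRPF19 was lower.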

How the results depend on the processing

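Between the lines, the count of called members stayed within 1.5 times the reported value under every alternative run. The median log2FC after DMSO ranged from -0.99 to -0.92 when each library was left out. With only the DMSO libraries of set 4 in both lines it was -0.84, and 49 members and 36.1% of tested genes were called. The median log2FC after the combination ranged from -0.80 to -0.42 without each library. For SK-UT-1B combination vs. DMSO, DESeq2 called 9 members and a fit with no filter beyond 1 count called 10 (2.81% and 2.52% of all genes in the same fits), and leaving out each library gave 0 to 28 calls and medians from -0.52 to -0.23. For MK-0752, DESeq2, the unfiltered fit and a fit on its own libraries called 2 each (1.04%, 0.965% and 1.20% of all genes). These were SRSF2 and SRSF6, or SRSF2 and SNRPC in the last fit. All 4 DMSO libraries as control gave 1 call (0.597%), and the other DMSO set as control moved the median to -0.22. Without each library this median ranged from -0.16 to -0.01. Leaving out libraries gave medians from -0.11 to -0.02 for the SK-LMS-1 combination and from 0.03 to 0.08 for the DMSO sets. For the MK-0752 effect minus the combination effect they ranged from -0.11 to 0.04. The unfiltered fit gave 1 call each for the DMSO sets and for this difference (0.290% and 0.313% of all genes). For the difference of combination effects, medians without each library ranged from 0.07 to 0.38. With the replicate number as a block, SK-LMS-1 combination vs. DMSO had 0 calls and a median of -0.06. The replicate numbers shared no deviation (r = -0.00676 across 21114 genes), and the other treatment comparisons shared fewer than 2 numbers. The cause of these shifts was not tested.

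Some uncalled log2FC values changed sign. With another DMSO control, MK-0752 values became -0.03 and -0.23 for PRPF31, -0.06 and -0.44 for SNRNP70 and 0.11 for SNRNP48, and combination values became -0.20 for PRPF18, 0.17 for SF3A2 and 0.44 for SNRPA1. SNRNP35 between the lines after the combination moved from 0.02 to -0.03 with DESeq2, with its size factors and with a mean of at least 50 counts, and to -0.02 unfiltered, and LSM4 moved to -0.01 in the difference of effects under the filter at 50. Without each library, the ranges were -0.13 to 0.43 for HNRNPA0, -0.03 to 0.80 for PRPF40B and -0.26 to 0.26 for SF3B6 in the SK-UT-1B combination, -0.14 to 0.29 for SF3B6 after MK-0752 and -0.11 to 0.40 for HNRNPLL in the SK-LMS-1 combination. Between the lines after the combination they were -0.16 to 1.47 for LSM6 and -0.28 to 0.35 for SNRNP35. In the difference of combination effects they were -0.44 to 0.70 for LSM4, -0.32 to 0.16 for SF3B4, -0.54 to 0.44 for SNRNP70 and -0.05 to 3.92 for SNRPN. They were -0.08 to 0.63 for LSM2 and -0.52 to 0.00 for SF3B6 between the DMSO sets, and -0.51 to 0.02 for SF3B6 in the MK-0752 effect minus the combination effect.

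Most groups had 2 libraries, and SNRPN, SNRPF, PRPF40B and LSM6 were near the lower end of the counts, which limits the precision of their log2FC.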
